A study of Mus musculus with 12 samples.

Results

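The enzymes that make serine and carry its carbon through the folate pathway were followed in spinal cord of mice with a neuropathy mutation in Gars, the gene of glycyl-tRNA synthetase. The members are 10 genes taken by symbol from the 38924 genes in the deposited tables: Phgdh, Psat1, Psph, Shmt1, Shmt2, Mthfd1, Mthfd1l, Mthfd2, Mthfd2l and Aldh1l2. Each symbol was found once, and all 10 were among the 17980 genes with enough counts to test.

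Whole spinal cord was taken at 8 weeks of age from 12 mice in 4 groups of 3. These were WT females (mice 1, 2 and 10), WT males (mice 5, 11 and 12), P278KY females (mice 3, 4 and 9) and P278KY males (mice 6, 7 and 8). WT mice are labelled wild type, and P278KY mice are labelled heterozygous, which the series text gives as GarsP278KY, and the strain background B6J;CAST is given for both. The libraries held 26982140 to 39339999 expected counts. Gars itself was at 118.2 to 137.8 CPM (counts scaled to library size) in WT and at 138.0 to 145.0 CPM in P278KY mice, narrowly without overlap (log2 change 0.13, SE 0.03, adjusted p = 0.046 with edgeR). The tables hold no count per allele, so this level does not check the genotype labels. Each mouse gave 1 library and no 2 libraries held the same values, but litters are not given.

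Serine is made from the glycolytic intermediate 3-phosphoglycerate in a chain of enzymes, PHGDH, PSAT1 and PSPH, and in the central nervous system most of this synthesis takes place in astrocytes and other glia. Serine hydroxymethyltransferase (SHMT1 in the cytosol, SHMT2 in mitochondria) then splits serine into glycine, the amino acid that glycyl-tRNA synthetase loads onto tRNA, and a carbon unit bound to folate. In mitochondria MTHFD2 or MTHFD2L and then MTHFD1L turn that unit into formate, ALDH1L2 can burn it to carbon dioxide, and in the cytosol MTHFD1 takes formate up again for purine, thymidylate and methionine synthesis. Several of these genes are textbook targets of ATF4, the transcription factor of the integrated stress response.

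In P278KY cord, 3 of the 10 transcripts rose and none fell. Mthfd2 rose by 30.9%, Psph by 24.8% and Shmt2 by 17.6%, and for each of them all 6 P278KY mice lay above all 6 WT mice. All 10 log2 changes were above 0, with a median of 0.24, while the median over all tested genes was -0.003 and 48.9% of tested genes were above 0. The members were chosen with earlier results of these data known, so this contrast is a description and no test of the group. Over all tested genes edgeR's quasi-likelihood test called 5.32%, of which 2.36% higher and 2.95% lower, and 1.73% had all P278KY mice above all WT mice. At an unadjusted p under 0.05 there were 6 members, all higher, when 20.2% of tested genes were so in either direction and 9.79% were higher. None was lower at that limit, and DESeq2 called 5 members higher and none lower, when it called 3.99% of tested genes higher. In bulk tissue a change in the number of cells of a type and a change in RNA per cell cannot be told apart.

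**Figure D1:**
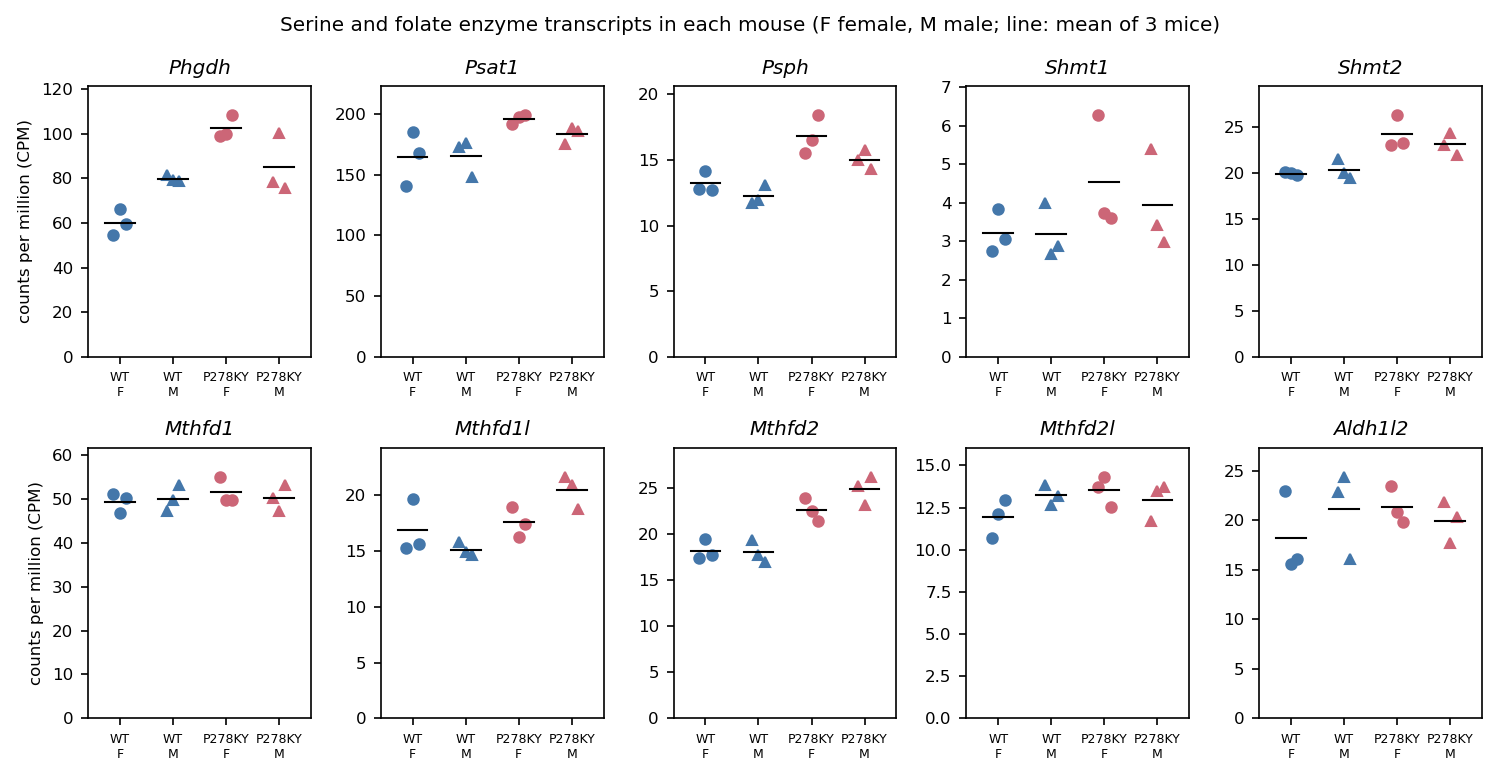
CPM (counts scaled to library size) of each of the 10 enzyme transcripts in every mouse, by genotype and sex (circles females, triangles males, blue WT, red P278KY, line the mean of 3 mice). For Psph, Shmt2 and Mthfd2 all 6 P278KY mice sit above all 6 WT mice, while for Phgdh the WT females, at 54.7 to 66.1 CPM, sit below the WT males, at 79.0 to 81.4 CPM.

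Markers of other tissues and cell types differed between libraries. Summed skeletal muscle markers (10 genes) were at 1101 to 8246 CPM in mice 1 to 4, all females, and at 35.6 to 214.5 CPM in the other 8. Summed sensory ganglion markers (8 genes) reached 68.0 CPM in P278KY male 7, against 35.4 CPM for WT female 10 and 27.2 CPM for WT male 11. The rest split by genotype, with WT mice 1, 2, 5 and 12 at 5.34 to 7.86 CPM. P278KY mice 3, 4, 6, 8 and 9 were at 11.7 to 15.3 CPM. Of the 8 genes 1, P2rx3, was called higher (log2 change 1.81, SE 0.30, adjusted p = 0.00525 with edgeR). None was called lower, and the median log2 change was -0.41. As to the tissue label, 6 spinal cord Hox genes summed to 309.2 to 404.8 CPM, and Xist and Ddx3y counts matched the labelled sex in all 12 mice. Of 7 motor neuron markers 5 were called lower in P278KY mice, summing to 128.4 to 147.4 CPM against 166.8 to 255.7 CPM, and of 8 Schwann cell markers 4 were lower, summing to 434.8 to 1547 CPM against 1485 to 2584 CPM. No gene of these lists was at 0 in every mouse. Mice 9 to 12 were set apart in earlier results of these data for low clock genes. Dbp, a clock output gene, was at 37.3 to 52.9 CPM in them and at 63.5 to 78.8 CPM in mice 1 to 8. Of mice 9 to 12, female 9 was P278KY, while female 10 and males 11 and 12 were WT. No P278KY male was among them, so this split and genotype cannot be fully told apart, most of all in males. Without mice 1 to 4, 3 members still passed, with Mthfd1l in place of Shmt2, when 1.09% of all tested genes were called higher. Without mice 7, 10 and 11 only Mthfd2 passed, and without mice 9 to 12 none did (by edgeR), when 0.479% and 0.144% of all tested genes were called higher. The log2 changes of the 3 genes moved less than the calls, to 0.39, 0.28 and 0.21 for Mthfd2, Psph and Shmt2 without mice 7, 10 and 11, and to 0.34, 0.29 and 0.22 without mice 9 to 12. The part of motor neuron, Schwann cell, muscle or ganglion RNA in the 3 changes was not tested further.

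The stretches upstream of the RefSeq start are shown for Mthfd2 and Shmt2, the mitochondrial enzymes that rose, and for Phgdh and Psat1, the genes of the first 2 steps of serine synthesis. Each is 250 bases of GRCm38.p6, read on the gene's own strand, and capitals mark a CCAAT box, read on either strand. The window of Psph is not printed, because 196 of its 250 bases lie in an annotated Psph exon. Of the printed windows, that of Phgdh has 21 bases in an annotated exon of its gene and that of Mthfd2 has 2. The windows are chr6:83317605-83317854 (minus strand) for Mthfd2, chr10:127522445-127522694 (minus) for Shmt2, chr3:98339970-98340219 (minus) for Phgdh and chr19:15925060-15925309 (minus) for Psat1.
Mthfd2: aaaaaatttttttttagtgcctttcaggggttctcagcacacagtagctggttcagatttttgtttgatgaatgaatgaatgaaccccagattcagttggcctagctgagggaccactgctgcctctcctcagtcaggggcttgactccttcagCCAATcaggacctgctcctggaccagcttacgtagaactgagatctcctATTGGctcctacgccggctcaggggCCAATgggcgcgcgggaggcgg
Shmt2: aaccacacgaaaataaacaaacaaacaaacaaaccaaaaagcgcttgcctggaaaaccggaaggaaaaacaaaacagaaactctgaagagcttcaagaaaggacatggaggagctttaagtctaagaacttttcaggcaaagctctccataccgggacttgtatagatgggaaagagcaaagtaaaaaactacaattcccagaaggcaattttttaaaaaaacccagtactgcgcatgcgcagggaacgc
Phgdh: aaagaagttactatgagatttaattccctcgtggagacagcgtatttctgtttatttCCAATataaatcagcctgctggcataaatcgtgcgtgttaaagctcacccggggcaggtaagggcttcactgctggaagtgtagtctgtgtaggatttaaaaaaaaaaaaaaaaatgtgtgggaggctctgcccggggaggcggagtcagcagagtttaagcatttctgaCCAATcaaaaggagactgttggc
Psat1: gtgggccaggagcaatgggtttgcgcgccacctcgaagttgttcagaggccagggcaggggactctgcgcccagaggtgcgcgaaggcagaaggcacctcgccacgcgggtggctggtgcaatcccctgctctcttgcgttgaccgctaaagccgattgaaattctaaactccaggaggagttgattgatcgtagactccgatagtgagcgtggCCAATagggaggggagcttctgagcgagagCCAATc
Promoter windows were found for 9 members, 10 windows in all since Psat1 has a pair of starts, and Aldh1l2 had no entry. The search covered both strands of the 250 bases for TGATGNAA, the core of the element that ATF4 binds with C/EBP partners, for the cyclic AMP element TGACGTCA, for the E box CACGTG and for the CCAAT box. A CCAAT box was present in 6 of the 10 windows (Phgdh, the printed window of Psat1, Psph, Shmt1, Mthfd1 and Mthfd2) and in 33.8% of all 32851 windows. The other Psat1 window, chr19:15924623-15924872 (minus strand), holds no CCAAT box. The Psph boxes, ending 74 and 44 bases before the start, lie in the annotated Psph exon. The Phgdh box ending 19 bases before the start lies partly in an annotated Phgdh exon, and 49 bases of the Shmt1 window lie in Shmt1 exon sequence. In Mthfd2 the CCAAT box occurred 3 times, ending 92, 43 and 18 bases before the start, and in Shmt2, which also rose, it was not found. TGATGNAA, TGACGTCA and CACGTG were in none of the 10 windows and in 3.45%, 1.55% and 6.02% of all windows. These letters may lie elsewhere in the genes, since the window covers only the bases just upstream of the RefSeq start. For Mthfd2, Psat1 and Shmt1 the window lies inside the GENCODE M21 gene span. On the minus strand those spans begin further upstream, at 83325908, 15947337 and 60811718.

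Among the serine synthesis enzymes, Psph rose and Phgdh and Psat1 had higher means but did not pass. Psph (ENSMUSG00000029446, chromosome 5, 129765558 to 129787449, minus strand, GENCODE M21) encodes the phosphatase that releases serine in the last step. It was at 12.8, 14.2 and 12.7 CPM in WT females 1, 2 and 10 and at 11.7, 11.97 and 13.1 CPM in WT males 5, 11 and 12. In P278KY mice it was at 15.5, 16.5 and 18.4 CPM in females 3, 4 and 9 and at 15.03, 15.8 and 14.3 CPM in males 6, 7 and 8. The genotypes did not overlap, though P278KY male 8 was barely above WT female 2. The log2 change was 0.32 (SE 0.06, adjusted p = 0.00619 with edgeR), and it passed in all 12 fits with 1 mouse left out (adjusted p at most 0.0204). Cct6a, which overlaps Psph on the opposite strand, averaged 74.4 ± 1.71 CPM in WT cord against 74.3 ± 2.26 CPM in P278KY cord (SD, n = 6), a log2 change of -0.002 (SE 0.03, adjusted p = 0.983 with edgeR).

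Phgdh (ENSMUSG00000053398, chromosome 3, 98313170 to 98339990, minus strand) encodes the dehydrogenase of the first step. It was at 54.7, 66.1 and 59.3 CPM in WT females 1, 2 and 10, the lowest values of the 12 mice, and at 81.4, 79.1 and 79.0 CPM in WT males 5, 11 and 12. P278KY females 3, 4 and 9 were at 99.0, 99.7 and 108.3 CPM and P278KY males 6, 7 and 8 at 78.5, 100.4 and 75.8 CPM. Female groups stood far apart, and P278KY males 6 and 8 lay below every WT male. Over all 12 mice the log2 change was 0.43 (SE 0.13), the highest among the members, but with a wide spread it did not pass (adjusted p = 0.0839 with edgeR). DESeq2's Wald test gave nearly the same change, 0.43, with an adjusted p of 0.00484, so the call depends on the test. Expected counts of Phgdh were not whole (within 0.005) in any mouse, while those of 6 members were whole in all 12; counts that are not whole come from reads shared between genes.

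Psat1 (ENSMUSG00000024640, chromosome 19, 15904678 to 15947337, minus strand), the aminotransferase of the middle step, was the most abundant member. It was at 141.1, 185.2 and 167.7 CPM in WT females 1, 2 and 10 and at 172.8, 176.3 and 148.0 CPM in WT males 5, 11 and 12. P278KY mice were at 191.5, 197.3 and 199.3 CPM in females 3, 4 and 9 and at 175.7, 188.3 and 186.4 CPM in males 6, 7 and 8. Of the 6 P278KY mice 5 lay above the highest WT mouse, the exception being male 6. The log2 change was 0.20 (SE 0.06) and did not pass (adjusted p = 0.0863 with edgeR, and 0.0268 with DESeq2).

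Phgdh and Psat1 are expressed mostly by astrocytes in cord, so astrocyte markers are given beside them. Of 10 astrocyte markers 1, the glutamate transporter gene Slc1a3, was called higher and none lower, with a median log2 change of 0.07. Their summed level was 6784 to 7492 CPM in WT and 7379 to 8431 CPM in P278KY mice. The ranges overlapped through WT male 11 alone, and the other WT mice lay below every P278KY mouse. Gfap (log2 change 0.29, adjusted p = 0.0962 with edgeR) and Aldh1l1 (0.14, adjusted p = 0.0825) did not pass. Sox9 (-0.06) and Aqp4 (-0.04) had changes below 0. The part of astrocytes in the Phgdh and Psat1 values was not tested.

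Of the enzymes that take the carbon from serine, the mitochondrial Shmt2 rose. Shmt2 (ENSMUSG00000025403, chromosome 10, 127517123 to 127522444, minus strand) was at 20.1, 19.96 and 19.8 CPM in WT females 1, 2 and 10 and at 21.5, 19.98 and 19.4 CPM in WT males 5, 11 and 12. P278KY mice were at 23.0, 26.3 and 23.3 CPM in females 3, 4 and 9 and at 23.1, 24.4 and 21.98 CPM in males 6, 7 and 8. The gap between WT male 5 and P278KY male 8 was the narrowest, and WT mice varied little, with an SD of 3.62% of the mean. The log2 change was 0.23 (SE 0.05, adjusted p = 0.0121 with edgeR), and the call held in all 12 fits with 1 mouse left out. Without mice 1 to 4 the change was 0.20 and the adjusted p 0.0879 by edgeR. Ndufa4l2, which overlaps Shmt2 on the opposite strand, averaged 2.19 CPM in WT and 2.01 CPM in P278KY cord.

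Shmt1 (ENSMUSG00000020534, chromosome 11, 60788104 to 60811718, minus strand), the cytosolic enzyme, was the scarcest member, with 73 to 217 expected counts a library. It was at 2.75, 3.83 and 3.07 CPM in WT females 1, 2 and 10 and at 3.99, 2.67 and 2.86 CPM in WT males 5, 11 and 12. P278KY females 3, 4 and 9 were at 6.28, 3.74 and 3.61 CPM, and P278KY males 6, 7 and 8 at 5.40, 3.41 and 2.98 CPM. Mice 3 and 6 stood above all others while the remaining 4 P278KY mice lay within the WT range. The log2 change of 0.41 (SE 0.19) was as high as that of Mthfd2 but did not pass (adjusted p = 0.251 with edgeR). Smcr8, which overlaps Shmt1 on the opposite strand, was far more abundant, averaging 52.8 ± 2.43 CPM in WT and 54.9 ± 2.10 CPM in P278KY cord (SD). Its log2 change was 0.06 (SE 0.04, adjusted p = 0.476 with edgeR).

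Mthfd2 was the member with the smallest p. Mthfd2 (ENSMUSG00000005667, chromosome 6, 83305691 to 83325908, minus strand), which oxidises methylene-folate in mitochondria and is scarce in most adult tissues, was at 17.4, 19.5 and 17.8 CPM in WT females 1, 2 and 10 and at 19.4, 17.8 and 17.0 CPM in WT males 5, 11 and 12. It was at 23.9, 22.6 and 21.5 CPM in P278KY females 3, 4 and 9 and at 25.2, 23.2 and 26.3 CPM in P278KY males 6, 7 and 8. Every P278KY mouse exceeded every WT mouse, with P278KY female 9 nearest to WT. The mean was 18.1 ± 1.07 CPM for WT and 23.8 ± 1.77 CPM for P278KY cord (SD, n = 6), a log2 change of 0.39 (SE 0.05, adjusted p = 0.00155 with edgeR) that ranked 99 of 17980 by p. With 1 mouse left out the change was 0.36 to 0.42 and the adjusted p at most 0.00627.

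Its close relative Mthfd2l did not move with it. Mthfd2l (ENSMUSG00000029376, chromosome 5, 90931117 to 91021368, plus strand), which does the same step in adult mitochondria, was at 10.7, 12.1 and 13.0 CPM in WT females 1, 2 and 10 and at 13.8, 12.6 and 13.2 CPM in WT males 5, 11 and 12. P278KY females 3, 4 and 9 were at 13.7, 14.3 and 12.6 CPM and P278KY males 6, 7 and 8 at 11.7, 13.5 and 13.7 CPM. The genotypes overlapped, and the log2 change was 0.08 (SE 0.07, adjusted p = 0.591 with edgeR). Within each mouse the ratio of Mthfd2 to Mthfd2l in TPM (a share of all transcripts, corrected for length) was 1.60 ± 0.153 in WT cord and 2.03 ± 0.218 in P278KY mice (SD, n = 6). These ratios ranged from 1.46 to 1.81 and from 1.74 to 2.39, so they overlapped, and no test was made of them.

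Mthfd1l and Aldh1l2, which finish the mitochondrial branch, did not pass. Mthfd1l (ENSMUSG00000040675, chromosome 10, 3973118 to 4167081, plus strand), which releases formate, was at 15.3, 19.7 and 15.6 CPM in WT females 1, 2 and 10 and at 15.8, 14.9 and 14.6 CPM in WT males 5, 11 and 12. It was at 19.0, 16.3 and 17.4 CPM in P278KY females 3, 4 and 9 and at 21.7, 20.9 and 18.7 CPM in P278KY males 6, 7 and 8. WT female 2 lay within the P278KY range and the other 5 WT mice below all P278KY mice. The log2 change was 0.25 (SE 0.09, adjusted p = 0.121 with edgeR). Without WT female 2 it was 0.32 with an adjusted p of 0.0183 by edgeR, when 1.80% of tested genes were called higher. That mouse held the highest WT value, so leaving it out was bound to raise the change, and nothing is concluded from that pass.

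Aldh1l2 (ENSMUSG00000020256, chromosome 10, 83487450 to 83534140, minus strand), which turns formyl-folate into carbon dioxide, varied most among WT mice, with an SD of 21.2% of the mean. It was at 23.0, 15.6 and 16.1 CPM in WT females 1, 2 and 10, at 22.9, 24.4 and 16.1 CPM in WT males 5, 11 and 12, at 23.5, 20.8 and 19.8 CPM in P278KY females 3, 4 and 9 and at 21.8, 17.7 and 20.4 CPM in P278KY males 6, 7 and 8. The WT mice fell into 3 near 16 and 3 near 23 CPM, on either side of most P278KY mice. The log2 change was 0.07 (SE 0.13, adjusted p = 0.805 with edgeR). D10Wsu102e, on the opposite strand across part of the gene, was at 17.7 to 28.2 CPM. Without a stated strand setting, reads of such a pair, as also for Psph, Shmt1 and Shmt2, cannot be assigned with certainty.

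The cytosolic Mthfd1 did not differ beyond its spread. Mthfd1 (ENSMUSG00000021048, chromosome 12, 76255298 to 76319803, plus strand), the trifunctional enzyme that takes up formate, was at 51.1, 46.8 and 50.1 CPM in WT females 1, 2 and 10 and at 47.2, 49.7 and 53.2 CPM in WT males 5, 11 and 12. P278KY mice were at 55.1, 49.6 and 49.8 CPM in females 3, 4 and 9 and at 50.1, 47.1 and 53.1 CPM in males 6, 7 and 8. The ranges overlapped almost wholly, and the log2 change was 0.03 (SE 0.05, adjusted p = 0.752 with edgeR). Inside each mouse the TPM ratio of Mthfd2 to Mthfd1 was 0.549 to 0.703 in WT and 0.744 to 0.860 in P278KY mice. The genotypes did not overlap in this ratio, which does not depend on how libraries are scaled. Mthfd2 alone did not overlap either while Mthfd1 changed little, so the ratio mostly restates the Mthfd2 values, and no test was made of it. The same ratio of the other mitochondrial and cytosolic pairs, Shmt2 to Shmt1 and Mthfd1l to Mthfd1, overlapped between the genotypes.

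**Figure D2:**
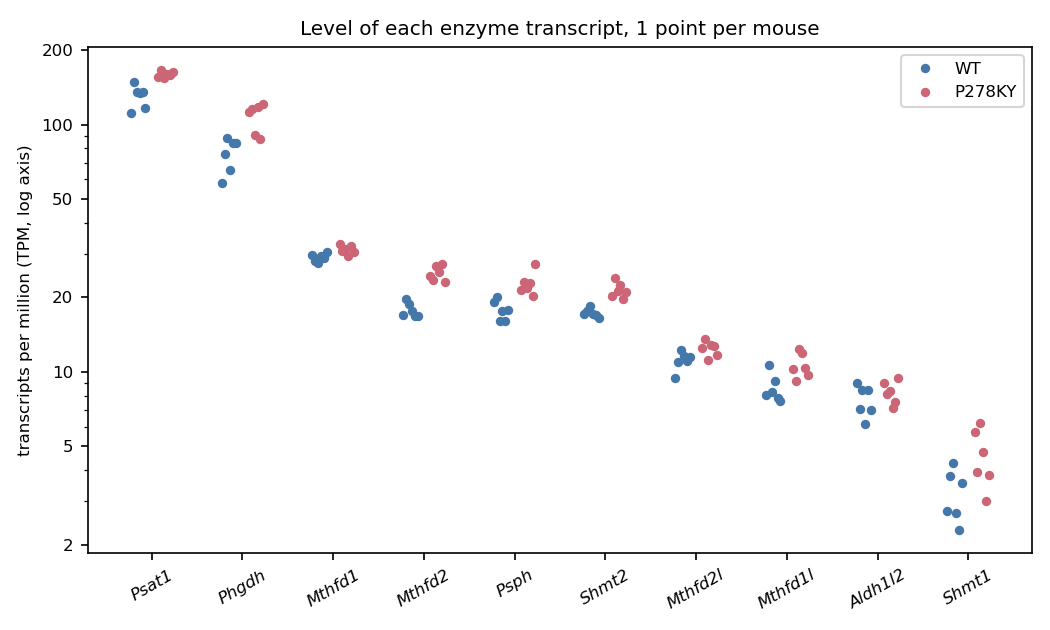
Level of each enzyme transcript in TPM on a log axis, 1 point per mouse, ordered by the WT mean (blue WT, red P278KY). Psat1, at 130.3 TPM, and Phgdh, at 76.1 TPM, lead in WT cord and Shmt1, at 3.23 TPM, is last.

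Per length, the serine synthesis enzymes Psat1 and Phgdh were the most abundant members in WT cord, at 130.3 ± 14.0 and 76.1 ± 11.9 TPM (SD, n = 6), and Psph of the same chain was at 17.8 ± 1.62 TPM. Mthfd1 followed at 29.0 ± 1.15 TPM. Mthfd2 (17.8 ± 1.2 TPM), Psph and Shmt2 (17.3 ± 0.668 TPM) did not differ beyond their spread. Mthfd2l (11.2 ± 0.961 TPM), Mthfd1l (8.62 ± 1.14 TPM) and Aldh1l2 (7.70 ± 1.10 TPM) formed the next run, each overlapping the next, and Shmt1 (3.23 ± 0.773 TPM) lay below all of them. Summed over Shmt2, Mthfd2, Mthfd2l, Mthfd1l and Aldh1l2, the mitochondrial level was 59.5 to 66.3 TPM in WT and 74.9 to 79.8 TPM in P278KY mice, without overlap. The other sums did not overlap either, with Shmt1 and Mthfd1 of the cytosol at 31.05 to 34.15 TPM against 34.24 to 38.49 TPM and Phgdh, Psat1 and Psph of serine synthesis at 188.2 to 245.1 TPM against 266.1 to 312.3 TPM. No test was made of the sums. The TPM scale itself was shifted toward P278KY, with a median log2 change over all tested genes of 0.06 at log2(TPM + 1). On that scale 1358 genes were called higher and 248 lower (84.6% higher), against 425 and 531 on the counts (44.5% higher), and 5 members passed, Phgdh and Psat1 being added with log2 changes of 0.50 and 0.30.

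**Figure D3:**
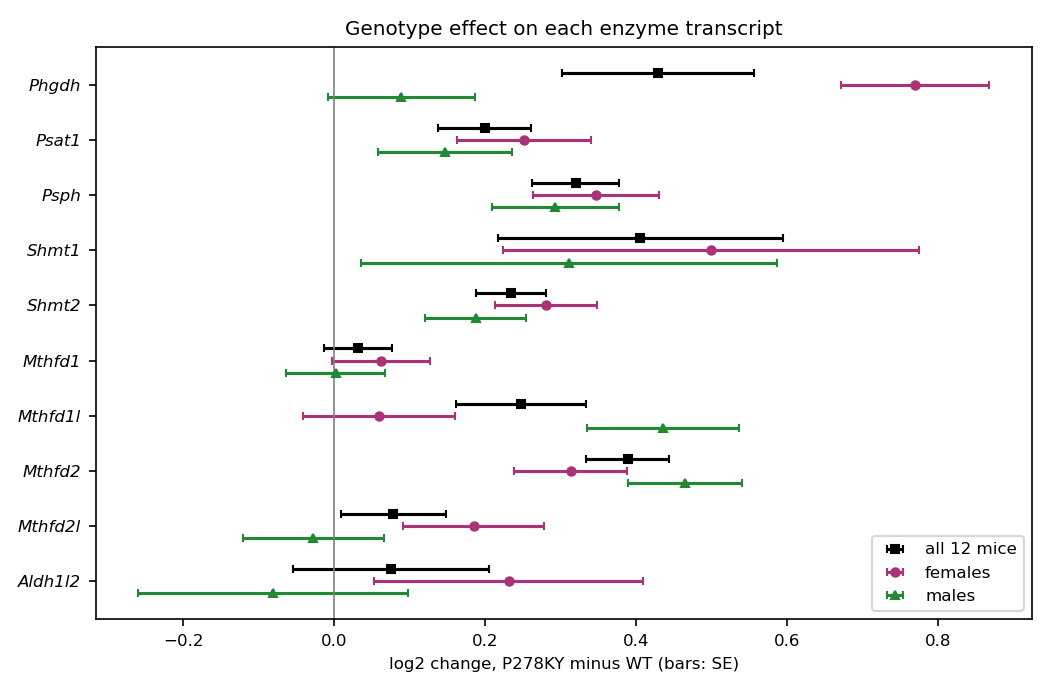
Log2 change of each transcript, P278KY minus WT, with its SE, for all 12 mice (black), females (magenta) and males (green). Phgdh shows the widest gap between the sexes, 0.77 in females and 0.09 in males, and Mthfd1l lies the other way, 0.06 and 0.44.

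The genotype effect was then taken within each sex, from a fit in which the 4 groups share an estimate of the spread. Mice 1 to 4, with the most muscle markers, were all females, and males 11 and 12, with low clock genes, were both WT. Differences between the sexes and these splits cannot be fully told apart. In females all 10 log2 changes were above 0 and Phgdh was the 1 member that passed (0.77, SE 0.10, adjusted p = 0.00558 with edgeR), when 0.189% of tested genes were called higher. In males 8 of 10 were above 0, and Mthfd2 was the 1 that passed (0.46, SE 0.08, adjusted p = 0.0117 with edgeR), when 0.517% of tested genes were called higher. Mthfd1l, at 0.44 (SE 0.10, adjusted p = 0.0568), passed when the 6 males were fitted alone (adjusted p = 0.0266), as did Mthfd2 (0.0207), when 0.729% of tested genes were called higher. The test of the difference between the sexes passed for no member and for no tested gene (0.0% called with edgeR). At an unadjusted p under 0.05 it gave 2 members, and 3.7% of all tested genes. These were Phgdh, with a log2 difference of -0.68 (male minus female, SE 0.14, unadjusted p = 0.000417, adjusted p = 0.234), and Mthfd1l, with 0.38 (SE 0.14, unadjusted p = 0.0215, adjusted p = 0.9999). Phgdh ranked 32 of 17980 in that test. P278KY male 7 was the mouse with the most ganglion markers and the 1 mutant male with high Phgdh. Without it the difference was -0.82 and passed (adjusted p = 0.00342 with edgeR), when 24 differences above 0 and 18 below 0 were called among 18263 genes. Of the 12 fits with 1 mouse left out it passed in that 1. Taking out the highest mutant male enlarges the difference by itself, so nothing is concluded from that pass.

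Sex by itself moved no member past the threshold in edgeR, when 0.089% of tested genes passed, 0.0389% higher and 0.0501% lower in males. The high muscle markers of mice 1 to 4 were all in females, so sex and muscle RNA cannot be fully told apart here. Psph was the 1 member at an unadjusted p under 0.05, where 8.95% of tested genes were, with a log2 difference of -0.14 (male minus female, SE 0.06, unadjusted p = 0.0347, adjusted p = 0.519).

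The mix of transcripts of each gene was followed through the average transcript length that RSEM weights by abundance. Of the 10 members 3 (Shmt2, Mthfd1 and Mthfd2l) have a single transcript in the tables, so their length is fixed. Shmt1 ranged most, from 1584 bases in P278KY male 7 to 2296 bases in WT female 10, on few counts. Aldh1l2 was at 4229 to 4325 bases in WT female 2, P278KY female 9 and WT male 12 and at 4827 to 5476 bases in the other 9 mice, a split that crosses genotype and sex. Phgdh, Psat1 and Mthfd2 stayed within 1795 to 1881, 2421 to 2529 and 1946 to 2085 bases. Genotype moved the length of none of the 7 members by limma's test on log2 length (adjusted p = 0.843 or more, none at an unadjusted p under 0.05), when 0.0178% of 11216 genes passed and 6.25% were at an unadjusted p under 0.05.

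Genes with the most similar pattern to each riser over the 12 mice were listed as a description, by the Pearson correlation of log2 CPM, the highest of 17979 compared in each case. For Mthfd2 they were Paxbp1 (0.96), Gadd45g (0.96), a stress-inducible gene, and B4galnt2 (0.96), for Shmt2 they were 2410089E03Rik (0.96), Gabrr2 (0.95) and Chd6 (0.94), and for Psph they were Ddit3 (0.93), the stress transcription factor CHOP, Sf1 (0.92) and Phf2 (0.90). All of these libraries share the genotype difference, which enters each value.

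**Figure D4:**
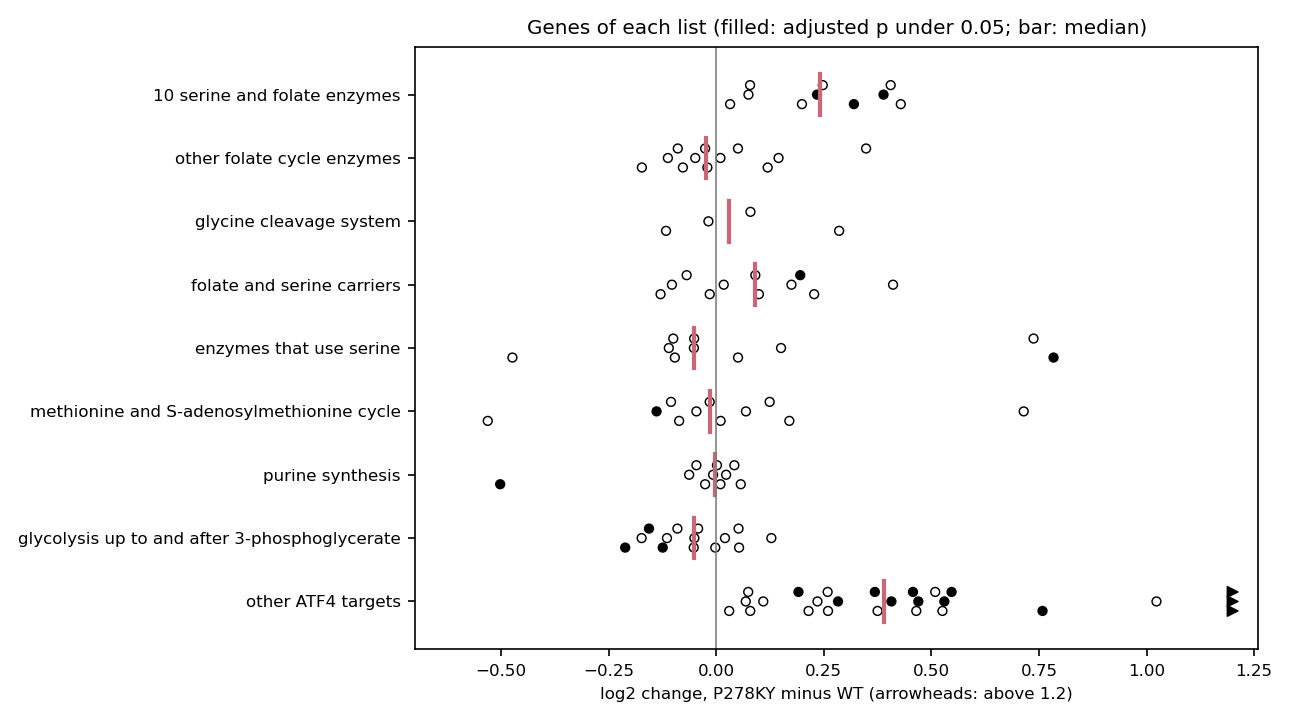
Log2 change, P278KY minus WT, of every tested gene in the 10 enzymes and in 8 lists around them (filled: adjusted p under 0.05 with edgeR; red bar: median of the list; arrowheads: beyond the axis). The 10 enzymes have a median of 0.24 and the other ATF4 targets 0.39, while the remaining 7 lists lie between -0.05 and 0.09.

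Around the 10 enzymes, 96 of 99 listed genes were tested, and 14 of them rose and 5 fell, when 2.36% and 2.95% of all tested genes were called higher and lower. In the rest of the folate cycle none of the 12 tested enzymes passed with edgeR, with a median log2 change of -0.02, while 3 were at an unadjusted p under 0.05 and 1 was called by DESeq2. The smallest p was that of Tyms, thymidylate synthase, averaging 27.5 ± 1.03 CPM in WT and 29.9 ± 0.884 CPM for P278KY cord (SD, n = 6), a log2 change of 0.12 (SE 0.04, adjusted p = 0.0707), and its genotypes did not overlap. Of the 4 glycine cleavage genes none passed with edgeR or DESeq2 and 1, Gldc, was at an unadjusted p under 0.05 (0.29, SE 0.11, adjusted p = 0.167).

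Among 11 carriers of folate and serine 1 rose and none fell, with a median of 0.09. That was Slc1a4, a transporter of serine and alanine, which averaged 67.9 ± 5.26 CPM in WT cord against 77.6 ± 3.38 CPM in P278KY cord (SD, n = 6), a log2 change of 0.20 (SE 0.04, adjusted p = 0.0146 with edgeR). Its log2 change was 0.19 without mice 1 to 4 and 0.17 without mice 7, 10 and 11, though with fewer mice neither passed (adjusted p = 0.0574 and 0.156). Among 10 enzymes that use serine, or cystathionine made from it, 1 rose and none fell, with a median of -0.05. Cth, cystathionine gamma-lyase, which makes cysteine from serine-derived cystathionine, rose 1.72-fold, from 2.46 ± 0.403 to 4.24 ± 0.406 CPM (log2 change 0.78, SE 0.12, adjusted p = 0.00281), above the log2 change of each of the 10 members, and without mice 7, 10 and 11 it was 0.66 (adjusted p = 0.0559).

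In the methionine cycle 1 of 11 tested genes fell and none rose (median -0.02). It was Ahcyl2, a relative of the enzyme that clears S-adenosylhomocysteine (-0.14, SE 0.03, adjusted p = 0.0279 with edgeR), lost in 6 of 12 fits with 1 mouse left out and at -0.02 on log2(TPM + 1). Its change was -0.12 without mice 1 to 4 and -0.14 without mice 7, 10 and 11, with adjusted p = 0.0972 and 0.122. Of 10 purine synthesis genes 1 fell, Impdh1, of guanine nucleotide synthesis, from 44.9 ± 2.88 to 31.7 ± 0.573 CPM (log2 change -0.50, SE 0.04, adjusted p = 3.98e-05 with edgeR), and the list median was -0.003. Of 14 glycolysis genes 3 fell and none rose (median -0.05): Tpi1 (-0.21, SE 0.03, adjusted p = 0.00383), Pgk1, which makes 3-phosphoglycerate (-0.16, SE 0.03, adjusted p = 0.00619), and Pkm (-0.12, SE 0.03, adjusted p = 0.0257), all by edgeR. On log2(TPM + 1), where the median over all genes was 0.06, Pgk1 was at -0.08 and Pkm at -0.05 and neither passed, and the call of Pkm was also lost in 6 of 12 fits with 1 mouse left out. Without mice 7, 10 and 11 the changes were -0.24 for Tpi1, -0.16 for Pgk1 and -0.12 for Pkm, of which Tpi1 passed (adjusted p = 0.0246, 0.0535 and 0.17).

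The 26 other ATF4 targets, listed with earlier results of these data known, had a median log2 change of 0.39. Of them 12 rose and none fell by edgeR, when 2.36% of all tested genes were called higher and 3 of the 10 members rose. Chosen in this way, the list is a description and no yardstick for the members. Their smallest p values were those of the stress hormone gene Fgf21, which went from 0.0287 ± 0.0272 to 5.37 ± 0.438 CPM, of the peptide gene Adm2, and of the cationic amino acid transporters Slc7a1 (0.55, SE 0.05) and Slc7a3 (0.76, SE 0.07). Psph and Shmt2 lay below that median and Mthfd2, at 0.39, on it.

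**Figure D5:**
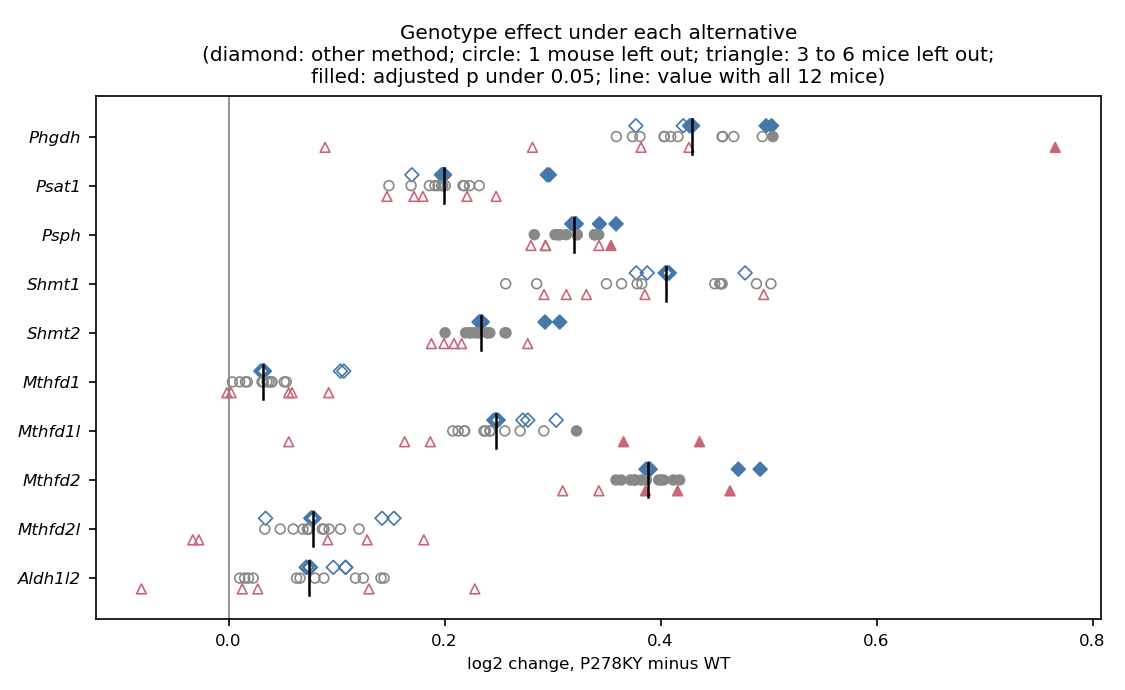
Log2 change of each transcript, P278KY minus WT, under 26 alternatives (diamonds other methods, circles 1 mouse left out, triangles 3 to 6 mice left out; filled: adjusted p under 0.05; line: all 12 mice). Mthfd2, Psph and Shmt2 stay above 0 throughout, and Mthfd1, Mthfd2l and Aldh1l2 cross 0 in 4 of the 260 values.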

How the data were processed

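Per the labels' protocols, polyadenylated RNA of each mouse was made into a stranded library and read as 75 base pairs from both ends. Bowtie2 2.2.0 and RSEM 1.2.12 are named in the submitters' processing notes; the sources used here give no genome build, annotation or strand setting. Per the file headers, the authors deposited RSEM's expected counts (estimated reads for each gene), TPM values, which are normalised for length and library, and FPKM values, which were not used. The deposited lengths, per the file headers, are abundance-weighted transcript lengths in bases.

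Expected counts were rounded, filtered with filterByExpr over the 4 groups (17980 genes) and TMM-scaled (trimmed mean of M values). edgeR 4.0.16 (R 4.3.3) fitted sex plus genotype with robust quasi-likelihood, with Benjamini-Hochberg adjustment over all tested genes and a threshold of 0.05. SE is the log2 change over the square root of F. A 4-group fit gave effects within sex and their difference. limma 3.58.1 tested log2 lengths. DESeq2 1.42.0 and limma on log2(TPM + 1) were alternatives. Fits were tested on simulated data. All 10 members and the lists were chosen with earlier results of these data known. Named from each list were up to 4 called genes by p, or else the smallest p, and the 3 genes most like each called member. Positions come from GENCODE M21 (GRCm38) by gene identifier, and sequences from RefSeq GRCm38.p6. Mthfsl and Slc18a3 had no match by symbol.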

Additional observations from a re-analysis of the deposited data

Results flagged for a closer look

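Each member's CPM values were checked for a mouse standing apart from the other 5 of its genotype, by the gap to its neighbour over the range, against Dixon's critical value. Of 20 such groups 2 had one, where chance gives about 1 in 20. Shmt2 was at 21.5 CPM in WT male 5, above the next WT mouse at 20.1 CPM (ratio 0.696), which still lay below every P278KY mouse. Mthfd1l was at 19.7 CPM in WT female 2, above the next WT mouse at 15.8 CPM (ratio 0.764). Of the 12 fits with 1 mouse left out, Mthfd1l passed in 1, the fit without that mouse.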

How the results depend on the processing

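The count of members called higher, 3 with all mice, was 5 with DESeq2's Wald test, 5 on log2(TPM + 1), 5 on log2(TPM + 0.1), 1 without mice 7, 10 and 11, 0 without mice 9 to 12, 1 in females alone and 2 in males alone (Mthfd2 and Mthfd1l). It ranged from 3 to 4 with 1 mouse left out, and no member was called lower in any of the 26 alternatives. Of 260 member values 256 kept their sign; the reversed values were -0.001554 for Mthfd1 and -0.0331 for Mthfd2l without mice 1 to 4, and -0.0275 for Mthfd2l and -0.0806 for Aldh1l2 in males alone. The count of members with a sex difference in the genotype effect ranged from 0 to 1 with 1 mouse left out. Pathway genes called higher (14) were 23 on log2(TPM + 1) and 8 without mice 7, 10 and 11; those called lower (5) were 2, and 2 in the same settings, and 3 without mice 1 to 4. Over all tested genes, 425 were called higher and 531 lower; these were 717 and 900 with DESeq2, 641 and 826 with voom, 1358 and 248 on log2(TPM + 1), 1374 and 248 on log2(TPM + 0.1), 24 and 44 in females, 126 and 224 in males, 201 higher without mice 1 to 4, 87 and 166 without mice 7, 10 and 11, 27 and 57 without mice 9 to 12, and 230 to 572 and 312 to 813 with 1 mouse left out. Fewer mice were fitted in the subsets; otherwise the cause was not tested. No paired analysis was possible because mouse numbers are not shared between groups. Shmt1 had the fewest counts of the members, 73 to 217 a library.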
